A study of Homo sapiens with 6 samples.

Results

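The metalloproteinase genes of the ADAM, ADAMTS and MMP families, the ADAMTS-like genes and the TIMP inhibitor genes were described in SY5Y cells with and without overexpression of DLX5. Members were the protein-coding genes of the count table whose symbol is one of the stems ADAM, ADAMTS, ADAMTSL, MMP or TIMP followed by a number and, where present, a letter. This gave 71 of 58735 genes, of which 19951 are protein-coding. They were 20 ADAM, 19 ADAMTS, 5 ADAMTSL, 23 MMP and 4 TIMP genes.

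SY5Y is an established human neuroblastoma line, and DLX5 is a distal-less-type homeodomain protein that binds DNA and regulates transcription. Total RNA was sequenced from 3 libraries of SY5Y cells with DLX5 overexpression and from 3 libraries of SY5Y control cells. Both groups were grown in DMEM/F12 with fetal bovine serum, and no further treatment or time is labelled. The vector and promoter that carry DLX5, whether the overexpressing line is a clone or a pool, and what the control cells carry are not given in the sources used here.

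The libraries held 14644077 to 16886026 gene counts, and mitochondrial genes took 7.1% to 9.13% of them. DLX5 stood at 1569 to 1677 CPM (counts scaled to a library size normalised by TMM) in the DLX5 libraries and at 12.3 to 13.8 CPM in the controls, so every library matched its label. Whether replicates are separate cultures is not labelled, and the p-values below then describe the scatter of these 6 libraries, part of which may be technical. Among the markers fixed for the adrenergic neuroblastoma identity of the line, 7 of 7 were detected and 7 of 7 were lower with DLX5. Of all tested genes 28.8% were lower. The markers summed to 1481 to 1604 CPM with DLX5 against 3691 to 4090 CPM in control. TH was near the floor, with 1, 1 and 0 counts in the DLX5 libraries and 1.44 to 1.83 CPM in control. It met the filter on low counts, given below, through the controls alone, so its fall was built in.

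ADAMs are membrane-anchored proteases, several of which release the outer part of other membrane proteins, a process called ectodomain shedding. MMPs and ADAMTS enzymes act mainly outside the cell or at its surface on collagens, proteoglycans and other matrix proteins, and most are made as inactive precursors that lose a propeptide when activated. ADAMTSL proteins resemble the ADAMTS enzymes but lack the protease domain, and TIMPs are secreted proteins that bind and block the active site of these enzymes. The measurements are of mRNA. Protein, precursor activation and enzyme activity were not measured.

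Of the 71 genes, 9 had no counts, 12 had too few counts to be tested and 50 were tested. With DLX5 28 of these were higher, 14 were lower and 8 did not pass an adjusted p of 0.05 (edgeR quasi-likelihood test, Benjamini-Hochberg adjustment over 17269 genes). The 42 that passed are 84.0% of the 50 tested, beside 58.6% of all tested genes and 63.9% of tested protein-coding genes. By family 61.5% of 13 tested ADAM genes passed, near these shares, and 84.2% of 19 ADAMTS genes. All tested ADAMTSL, MMP and TIMP genes (4, 11 and 3) passed. By direction the background is 29.8% higher and 28.8% lower over all tested genes, and 32.6% and 31.3% over protein-coding ones. A change of at least 2-fold was called for 16 genes upward and 9 downward, which is 50% of the tested members beside 16.4% of all tested genes (11.3% higher and 5.18% lower) and 15.9% of tested protein-coding genes (11.1% higher and 4.73% lower). For the tested ADAM genes that share was 15.4%, again near the background. At least 8-fold higher were 6 members, beside 2.71% of all and 2.65% of protein-coding tested genes, and 0 were at least 8-fold lower, beside 0.272% and 0.231%. Of these 6 members ADAMTSL5, ADAMTS8, ADAM33 and ADAMTS18 were tested only because they passed the filter on low counts in the DLX5 libraries, so a rise was built in, and the others were ADAMTS15 and ADAMTSL1.

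The median log2 fold change of the 50 tested members was 0.34 and the median of its size, regardless of sign, was 1.01. Over all tested genes these medians were -0.00183 and 0.358. For the ADAM family alone they were 0.17 and 0.29. Library values of the groups did not overlap for 43 members (86.0%), beside 62.5% of all and 67.2% of protein-coding tested genes. The filter on low counts asked for about 0.617 CPM in 3 libraries. It was met in all 6 libraries by 44 of the tested members, of which 37 passed. The share that passed among all genes meeting it in all 6 libraries was not worked out, so the 37 have no like background. Through the DLX5 libraries alone it was met by 5 members (ADAMTSL5, ADAMTS8, ADAM33, ADAMTS18 and MMP25), for which a difference was built in. These counts leave out the 21 untested genes and are descriptions of a list chosen with results known.

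**Figure D1:**
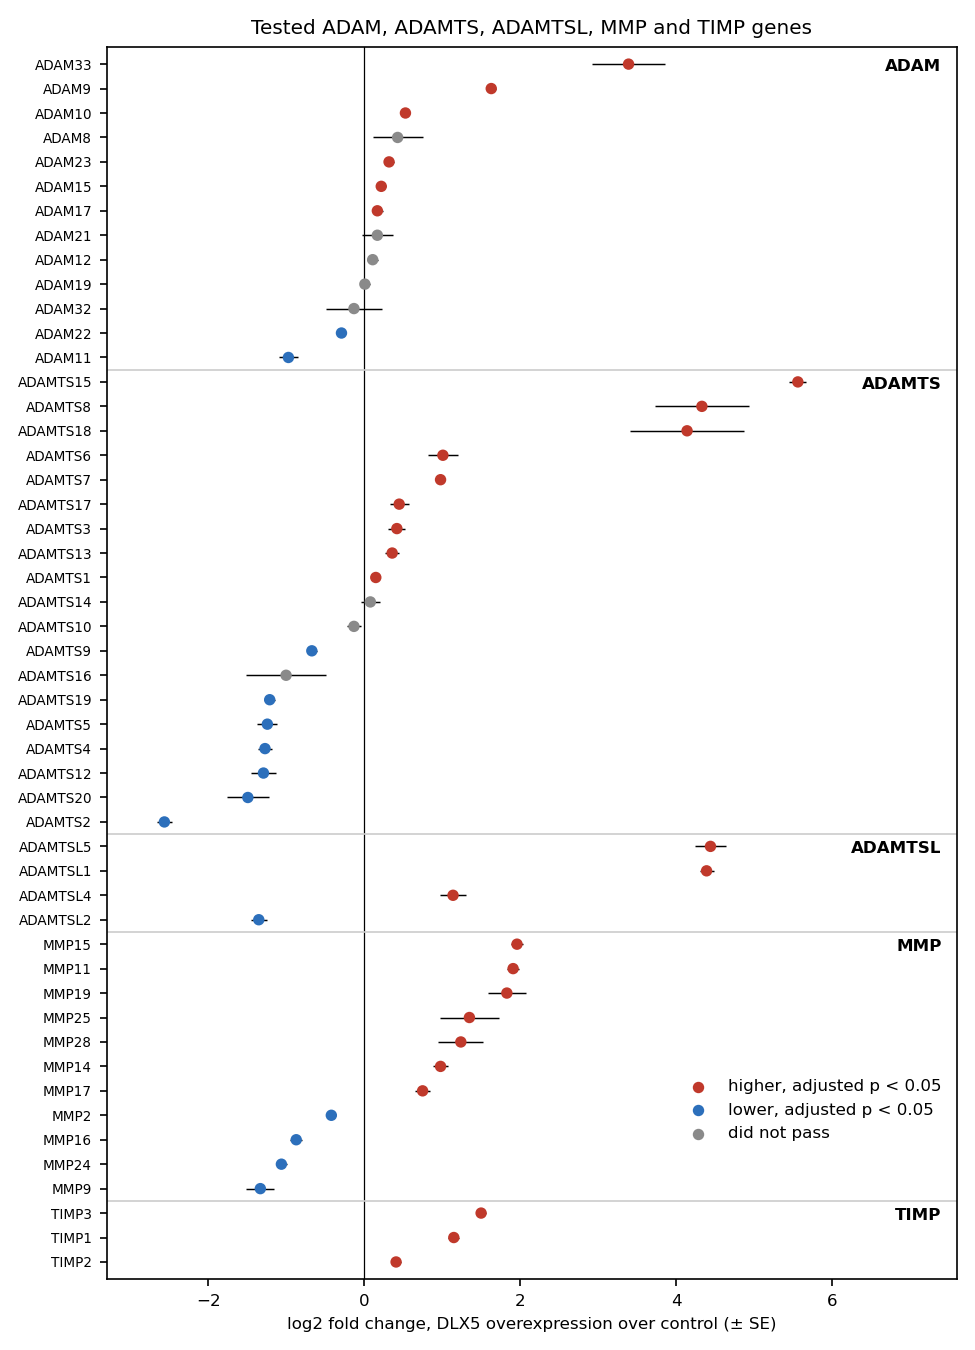
Log2 fold change with its standard error (DLX5 overexpression over control, horizontal axis) of the 50 tested members, sorted within each family; red and blue points passed an adjusted p of 0.05 (higher and lower), grey points did not. The points run from -2.56 (ADAMTS2) to 5.56 (ADAMTS15), and only the TIMP family has no point at or left of 0.

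Promoter sequences were matched for 44 of the 71 genes in the RefSeq promoter table (GRCh38.p14, 250 bases before to 50 bases after the annotated start). They were searched on both strands for TAATT, a core bound by DLX-type homeodomains, for TGANTCA, the AP-1 site known from several MMP promoters, and for CACGTG, the E-box of MYC and MAX. None of these motifs contains another. TAATT was present in 12 of the 44 promoters (27.3%), beside 25.3% of all 27305 promoters, TGANTCA in 4 (9.09%, beside 7.76%) and CACGTG in 5 (11.4%, beside 7.43%). The shares of the matched members, tested or not, were thus close to those of all promoters. Many of the matches lay at genes with no counts or too few to test. These were ADAM20, ADAM29, MMP8, MMP10, MMP20, MMP26 and MMP27 for TAATT, MMP7, MMP10 and MMP20 for TGANTCA, and ADAM30 and MMP21 for CACGTG. The shares therefore do not describe the tested members alone. They also leave out ADAMTS15, ADAM9, ADAMTS9, MMP2 and TIMP2, which were among the genes without a matched promoter. A match is only a run of letters, and no binding was measured. The examples below are shown because 1 higher gene and 1 lower gene carry the DLX-type core, 1 lower gene carries the AP-1 site, and 1 higher gene carries none of the 3. Capitals mark the motif. Sequences are written 5′ to 3′ on the strand of the gene, for TIMP3 (chr22:32801455-32801754, plus strand), MMP14 (chr14:22836335-22836634, plus strand), ADAMTS19 (chr5:129460048-129460347, plus strand) and ADAMTS12 (chr5:33891941-33892240, minus strand).
TIMP3: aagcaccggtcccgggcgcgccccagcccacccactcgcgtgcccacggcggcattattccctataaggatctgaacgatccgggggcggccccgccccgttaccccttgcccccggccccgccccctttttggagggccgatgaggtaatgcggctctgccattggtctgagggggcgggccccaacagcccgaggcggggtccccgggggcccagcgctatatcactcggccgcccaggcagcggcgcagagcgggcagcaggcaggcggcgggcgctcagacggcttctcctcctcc
MMP14: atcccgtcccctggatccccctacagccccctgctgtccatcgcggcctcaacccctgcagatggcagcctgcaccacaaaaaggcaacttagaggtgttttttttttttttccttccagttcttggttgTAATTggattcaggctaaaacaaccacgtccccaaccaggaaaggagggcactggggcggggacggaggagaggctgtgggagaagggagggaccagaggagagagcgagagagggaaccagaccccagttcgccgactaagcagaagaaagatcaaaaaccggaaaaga
ADAMTS19: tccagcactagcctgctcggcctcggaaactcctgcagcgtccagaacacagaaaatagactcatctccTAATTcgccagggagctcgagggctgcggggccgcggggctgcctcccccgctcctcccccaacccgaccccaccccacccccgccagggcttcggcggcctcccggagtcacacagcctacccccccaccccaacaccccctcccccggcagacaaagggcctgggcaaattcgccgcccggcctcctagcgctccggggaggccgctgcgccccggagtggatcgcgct
ADAMTS12: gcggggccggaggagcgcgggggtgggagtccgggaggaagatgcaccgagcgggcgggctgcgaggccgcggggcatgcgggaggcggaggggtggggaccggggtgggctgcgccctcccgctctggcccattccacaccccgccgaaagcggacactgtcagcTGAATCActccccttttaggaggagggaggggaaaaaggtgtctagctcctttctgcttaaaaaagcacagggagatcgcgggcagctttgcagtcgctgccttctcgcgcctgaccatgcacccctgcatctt
MMP14 was 1.97-fold higher and ADAMTS19 was 2.31-fold lower, so the DLX-type core stood before a gene of each direction. ADAMTS12, with the AP-1 site, was 2.44-fold lower, and TIMP3, with no match, was 2.84-fold higher. The RefSeq starts lie 4, 28, 33 and 202 bases from the gene starts of the count table for TIMP3, MMP14, ADAMTS19 and ADAMTS12.

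The TIMP inhibitors were higher with DLX5 in 3 of 3 tested genes, and TIMP4 had no counts. TIMP3 (ENSG00000100234, chromosome 22, 32801701 to 32863043, plus strand, GRCh38), which binds to the matrix and also blocks ADAM17 and ADAMTS enzymes, stood at 220, 236 and 221 CPM in the DLX5 libraries and at 76.6, 78.2 and 83.8 CPM in the controls. The groups were far apart, with a log2 fold change of 1.5 ± 0.06 (± SE, edgeR adjusted p = 2.57e-17). TIMP1, an inhibitor of most MMPs, stood at 119, 119 and 126 CPM against 56.3, 58.1 and 49.2 CPM, a log2 fold change of 1.15 ± 0.07 (adjusted p = 7.17e-14). TIMP2, which blocks MMPs and together with MMP14 also takes part in activating the MMP2 precursor, stood at 798, 817 and 796 CPM against 580, 632 and 596 CPM. Its change was the smallest of the 3, at 1.33-fold (log2 fold change 0.41 ± 0.06, adjusted p = 7.86e-07), and again no DLX5 library overlapped a control.

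On the deposited FPKM scale, which divides by gene length and so allows levels of different genes to be compared, TIMP2 was the most abundant member with DLX5 and MMP2 the most abundant in control. TIMP2 had 141 ± 2.48 FPKM with DLX5 and 106 ± 4.63 FPKM in control (SD, n = 3), and MMP2 had 91.9 ± 1.24 and 123 ± 6.22 FPKM. TIMP1 had 77.9 ± 2.43 and 35.1 ± 2.98 FPKM, next after MMP2 with DLX5, and in control ADAMTS9 lay above it at 54.6 ± 3.81 FPKM. Over all libraries 38 members had a mean of at least 1 FPKM and 15 of at least 10 FPKM.

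The gelatinases, which cleave denatured collagen and basement membrane, were both lower. MMP2 (ENSG00000087245, chromosome 16, 55389700 to 55506691, plus strand) stood at 451, 458 and 463 CPM with DLX5 and at 644, 583 and 607 CPM in control. Its fall of 1.34-fold (log2 fold change -0.42 ± 0.06, edgeR adjusted p = 7.61e-07) left it the leading MMP. MMP9 stood at 2.95, 2.39 and 2.31 CPM against 6.03, 6.59 and 6.64 CPM, a log2 fold change of -1.33 ± 0.18 (adjusted p = 5.29e-07). MMP9 was thus low in every library, and SLC12A5-AS1, which overlaps it on the other strand, held 35.6% as many counts.

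The membrane-type MMPs, which are held at the cell surface by a transmembrane helix or a lipid anchor, moved both ways, with 4 of 6 higher and 2 of 6 lower. MMP15 stood at 65.6, 69.9 and 72.2 CPM with DLX5 against 20.2, 16.3 and 17.1 CPM in control, a 3.89-fold rise (log2 fold change 1.96 ± 0.08, edgeR adjusted p = 6.89e-17). MMP14, the activator of the MMP2 precursor, whose promoter is printed above, stood at 22.4, 26.3 and 24.4 CPM against 12.5, 11.7 and 12.9 CPM (log2 fold change 0.98 ± 0.10, adjusted p = 3.36e-09). In both genes every DLX5 library lay above every control. The lipid-anchored MMP17 rose by 0.75 ± 0.10 on the log2 scale.

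MMP24, a membrane-type MMP known mainly from neurons, went the other way, with 35.9 to 40.7 CPM in the 3 DLX5 libraries against 85.0, 75.6 and 82.1 CPM (log2 fold change -1.06 ± 0.07, edgeR adjusted p = 1.62e-12). MMP16 fell by 0.87 on the log2 scale (SE 0.08). In control MMP24 had the higher FPKM of MMP24 and MMP15 (18.2 ± 1.09 against 4.01 ± 0.461, SD, n = 3), and with DLX5 MMP15 had it (15.5 ± 0.764 against 8.73 ± 0.591). MMP25, also lipid-anchored, stood at 1.02, 1.29 and 1.4 CPM against 0.469, 0.36 and 0.609 CPM, a log2 fold change of 1.35 ± 0.38 (adjusted p = 0.00378). MMP25 was tested through the DLX5 libraries alone. Its antisense gene MMP25-AS1 held 599% as many counts and rose by 1.13 ± 0.19, and without a known strand setting the reads of the pair cannot be told apart. MMP24OS, on the other strand of MMP24, held 41.2% as many counts and rose by 0.43 ± 0.09, against the direction of MMP24.

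Of the other MMPs 3 could be tested and 3 were higher. MMP11, or stromelysin-3, which is activated inside the cell by furin-type convertases, stood at 108, 101 and 117 CPM with DLX5 and at 32.6, 27.2 and 27.5 CPM in control (3.75-fold, log2 fold change 1.91 ± 0.08, edgeR adjusted p = 2.57e-17). CHCHD10, which overlaps MMP11 on the other strand, held 33.3% as many counts and moved in the opposite direction (log2 fold change -0.48 ± 0.12). MMP19 stood at 4.45, 4.07 and 4.14 CPM against 1.01, 1.32 and 1.22 CPM (1.83 ± 0.24, adjusted p = 2.27e-07). TMEM198B, on its other strand, held 926% as many counts and was itself higher (1.00 ± 0.09), so the reads given to MMP19 are uncertain.

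MMP28, or epilysin, stood at 4.03, 3.87 and 4.44 CPM against 1.41, 3.0 and 0.792 CPM, a log2 fold change of 1.24 ± 0.29 (edgeR adjusted p = 0.000638). The controls were spread, and the change was 1.91 without control replicate 2. The collagenases MMP1, MMP8 and MMP13 and the stromelysins MMP3 and MMP10 could not be tested. They belong to a cluster of 9 MMP genes on chromosome 11 (102520508 to 102955734, GRCh38), which took 31 counts over all libraries, 8 with DLX5 and 23 in control. In that cluster MMP8, MMP12, MMP20 and MMP27 had 0 counts in every library.

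**Figure D2:**
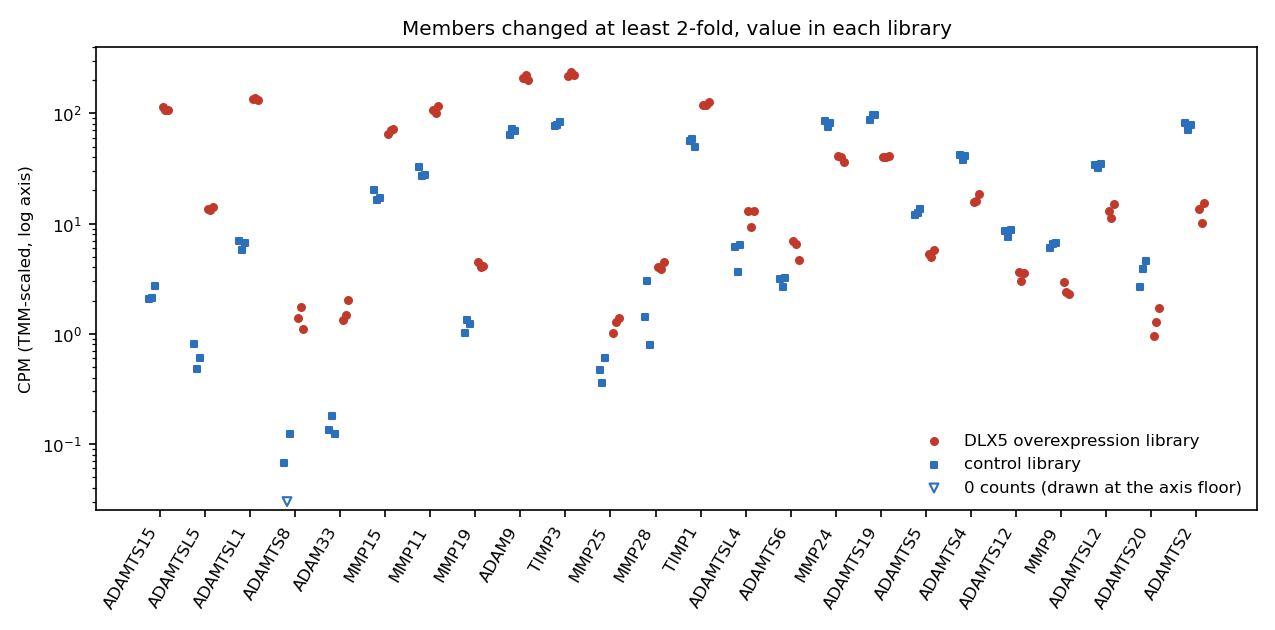
CPM in each library (TMM-scaled, log axis) of the 24 members that passed with at least a 2-fold change and at least 1 CPM on average in a group; circles are DLX5 libraries and squares are controls, with 0 counts drawn as an open triangle at the axis floor. No gene shows overlapping groups, which largely follows from this choice of genes. The widest gap is that of ADAMTS15 (107 to 114 CPM against 2.08 to 2.74 CPM).

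Among the ADAMTS enzymes that cut versican, aggrecan and related proteoglycans, 3 of 7 were higher and 4 of 7 lower. ADAMTS15 (ENSG00000166106, chromosome 11, 130448974 to 130476641, plus strand) stood at 114, 107 and 108 CPM with DLX5 and at 2.08, 2.1 and 2.74 CPM in control. At 47.3-fold (log2 fold change 5.56 ± 0.11, edgeR adjusted p = 1.66e-24) this was the largest change of the tested members. Its neighbour ADAMTS8, which starts 19981 bases away on the minus strand, stood at 1.38, 1.74 and 1.1 CPM against 0.067, 0 and 0.122 CPM. The controls held 3 counts of ADAMTS8 in all. The ratio of the groups was 22.4 with a 95% counting interval of 7.36 to 111 (fitted log2 fold change 4.33 ± 0.60, adjusted p = 6.41e-07, and 5.16 without control replicate 3). Both genes of the pair were therefore higher, ADAMTS15 at a high level and ADAMTS8 near the floor.

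The lower proteoglycanases were ADAMTS9, ADAMTS4, ADAMTS5 and ADAMTS20. ADAMTS9, the most abundant ADAMTS gene, stood at 374, 371 and 366 CPM with DLX5 and at 567, 561 and 634 CPM in control (log2 fold change -0.67 ± 0.06, edgeR adjusted p = 3.7e-10). ADAMTS4, an aggrecanase, stood at 15.6, 16.0 and 18.4 CPM against 42.3, 37.6 and 40.7 CPM (-1.27 ± 0.09, adjusted p = 2.14e-12). ADAMTS5, the other classical aggrecanase, stood at 5.35, 4.97 and 5.78 CPM against 11.9, 12.4 and 13.7 CPM (-1.24 ± 0.13, adjusted p = 9.62e-09). The groups were separate in each of these genes, and the aggrecanases fell by a similar factor, 2.41-fold for ADAMTS4 and 2.36-fold for ADAMTS5.

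ADAMTS20 was low throughout, at 0.963, 1.29 and 1.7 CPM with DLX5 and 2.68, 3.84 and 4.57 CPM in control (log2 fold change -1.49 ± 0.27, edgeR adjusted p = 3.07e-05). ADAMTS1, which lies 72503 bases from ADAMTS5 on chromosome 21, stood at 96.0, 102 and 97.9 CPM against 88.1, 93.4 and 85.1 CPM. Its change of 0.15 ± 0.06 (adjusted p = 0.0444) was small and lost the call under several settings, with adjusted p = 0.269 under library totals and 0.0669 to 0.179 without DLX5 replicate 1, 2 or 3 or control replicate 1 or 3.

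ADAMTS2, which removes the amino-terminal propeptide of fibrillar procollagens, fell further than any other tested member. It stood at 13.5, 10.1 and 15.3 CPM with DLX5 and at 81.9, 70.6 and 77.9 CPM in control, 5.89-fold lower (log2 fold change -2.56 ± 0.10, edgeR adjusted p = 1.18e-17). The related ADAMTS3 rose by 0.42 ± 0.11 on the log2 scale (adjusted p = 0.00176), and ADAMTS14 had a log2 fold change of 0.08 ± 0.12 (adjusted p = 0.577). In FPKM, ADAMTS2 had 8.73 ± 0.66 in control and 1.47 ± 0.293 with DLX5, and ADAMTS3 had 1.88 and 2.51. In control ADAMTS2 was thus the most abundant of the 3 procollagen N-proteinases, and with DLX5 it was the least abundant.

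The remaining 9 ADAMTS genes gave 5 higher, 2 lower and 2 that did not pass. ADAMTS7, which cleaves cartilage oligomeric matrix protein, stood at 212, 195 and 213 CPM with DLX5 and at 113, 101 and 99.8 CPM in control (log2 fold change 0.98 ± 0.06, edgeR adjusted p = 5.43e-13). ADAMTS12, its nearest relative with the same known substrate, went the other way, at 3.61, 3.03 and 3.53 CPM against 8.64, 7.61 and 8.71 CPM (-1.29 ± 0.16, adjusted p = 1.14e-07). ADAMTS19 stood at 40.2, 39.9 and 41.3 CPM against 87.4, 96.4 and 96.9 CPM (-1.21 ± 0.07, adjusted p = 2.41e-14). These 3 genes showed no overlap between groups.

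ADAMTS6, which is linked to fibrillin microfibrils, stood at 6.98, 6.59 and 4.63 CPM against 3.15, 2.64 and 3.23 CPM (log2 fold change 1.01 ± 0.19, edgeR adjusted p = 6.01e-05). Its relative ADAMTS10 had a log2 fold change of -0.13 ± 0.09 (adjusted p = 0.245). ADAMTS13, which cleaves von Willebrand factor, rose by 0.36 ± 0.09 and ADAMTS17 rose by 0.45 ± 0.12. ADAMTS18 stood under 1.1 CPM everywhere, with 2 counts in the controls and a ratio of 20.8 (95% counting interval 5.41 to 177). Its fitted log2 fold change was 4.14 ± 0.73 (adjusted p = 2.31e-05), and 6.83 without control replicate 1. ADAMTS16 had a log2 fold change of -1.0 ± 0.51 (adjusted p = 0.0941), and it passed only without DLX5 replicate 1 (-2.02, adjusted p = 0.00811).

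ADAMTS-like genes were higher in 3 of 4 tested cases, of which ADAMTSL5 was tested through the DLX5 libraries alone. ADAMTSL1 (ENSG00000178031, chromosome 9, 17906563 to 18910950, plus strand), also called punctin, stood at 136, 138 and 133 CPM with DLX5 and at 6.9, 5.81 and 6.64 CPM in control (21.0-fold, log2 fold change 4.39 ± 0.09, edgeR adjusted p = 2.23e-24). ADAMTSL5, which binds fibrillin-1, stood at 13.7, 13.3 and 14.1 CPM against 0.804, 0.48 and 0.609 CPM (21.7-fold, 4.44 ± 0.20, adjusted p = 1.8e-16). ADAMTSL4, a microfibril protein of the eye and other tissues, stood at 13.1, 9.3 and 12.9 CPM against 6.16, 3.6 and 6.33 CPM (1.14 ± 0.17, adjusted p = 2.98e-06). In each of the 3 the lowest DLX5 library lay above the highest control.

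ADAMTSL2, which binds the latent TGF-beta binding protein LTBP1, was the exception. It stood at 13.1, 11.2 and 15.0 CPM with DLX5 and at 34.0, 32.1 and 34.7 CPM in control (log2 fold change -1.35 ± 0.10, edgeR adjusted p = 5.34e-12). ADAMTSL2 led the family in control with 7.13 ± 0.298 FPKM, and ADAMTSL1 led it with DLX5 at 9.84 ± 0.211 FPKM (SD, n = 3). ADAMTSL1 made up 5.45% of the summed FPKM of the ADAMTSL family in control and 54.2% with DLX5. ADAMTSL3 had no counts.

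Among the ADAMs with a catalytic site 5 of 9 tested were higher and 0 were lower. The called share of 55.6% was near the 58.6% of all tested genes (29.8% higher and 28.8% lower). ADAM9 (ENSG00000168615, chromosome 8, 38996869 to 39105144, plus strand), a widely expressed sheddase, stood at 211, 221 and 201 CPM with DLX5 and at 63.6, 71.5 and 69.4 CPM in control (3.09-fold, log2 fold change 1.63 ± 0.06, edgeR adjusted p = 1.17e-17). Its neighbour ADAM32, which begins 1846 bases beyond it on the same strand, had a log2 fold change of -0.13 ± 0.36. ADAM33 stood at 1.32, 1.49 and 2.01 CPM against 0.134, 0.18 and 0.122 CPM, with 7 counts in the controls (3.39 ± 0.47, adjusted p = 6.41e-07). Both genes were separate between groups, and ADAM33, near the floor in control, was tested through the DLX5 libraries alone.

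ADAM10, the main sheddase of Notch receptors and N-cadherin, stood at 133, 144 and 130 CPM against 93.0, 96.0 and 93.4 CPM (log2 fold change 0.53 ± 0.06, edgeR adjusted p = 3.74e-08). ADAM15 stood at 192, 189 and 194 CPM against 171, 161 and 162 CPM (0.22 ± 0.06, adjusted p = 0.00197). ADAM17, which releases TNF and ligands of the EGF receptor, stood at 102, 107 and 93.7 CPM against 85.2, 92.2 and 92.0 CPM. Its change of 0.17 ± 0.07 (adjusted p = 0.0303) lost the call with library totals (adjusted p = 0.193), with DESeq2 (0.0606) and without DLX5 replicate 1 (0.0869), DLX5 replicate 2 (0.133) or control replicate 1 (0.123). IAH1, on the other strand of ADAM17, held 51.1% as many counts and was itself higher (0.25 ± 0.08, adjusted p = 0.00633). The change of the main sheddases was thus 1.44-fold for ADAM10 and 1.12-fold for ADAM17.

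ADAM19 and ADAM12, which are known from heart and muscle development, did not pass, with log2 fold changes of 0.01 ± 0.06 (edgeR adjusted p = 0.95) and 0.11 ± 0.07 (adjusted p = 0.207). CYFIP2 overlaps ADAM19 on the other strand and held 158% as many counts. ADAM12 passed without control replicate 1 (0.18, adjusted p = 0.0419). ADAM8 and ADAM21, at a few CPM or less, did not pass either, with 0.43 ± 0.32 and 0.17 ± 0.20.

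The ADAMs without a catalytic site that are known from nervous tissue, where they bind LGI proteins at synapses and axons, split in direction. ADAM23 rose by 0.32 ± 0.06 on the log2 scale, with 87.7, 86.6 and 87.7 CPM against 68.3, 67.9 and 73.7 CPM (edgeR adjusted p = 0.000112). ADAM22 stood at 163, 173 and 147 CPM against 187, 199 and 205 CPM (log2 fold change -0.29 ± 0.06, adjusted p = 0.000343). ADAM11 stood at 8.6, 9.75 and 9.56 CPM against 21.5, 15.6 and 17.7 CPM (-0.97 ± 0.12, adjusted p = 1.86e-07). The last of these had the largest fall among the ADAMs. Members known mainly from the testis or epididymis (ADAM2, ADAM7, ADAM18, ADAM20, ADAM29 and ADAM30) had no counts or too few to test. By contrast, ADAM21 and ADAM32, known mainly from the testis, were tested with 333 and 94 counts over all libraries.

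The untested genes were low in every library. No counts were assigned to TIMP4, ADAM28, ADAM2, MMP26, MMP20, MMP27, MMP8, MMP12 and ADAMTSL3. Another 12, namely MMP23B, MMP21, MMP1, ADAM29, MMP3, MMP13, ADAM20, MMP10, ADAM7, MMP7, ADAM30 and ADAM18, had between 1 and 21 counts over all libraries. None of these was tested. MMP1, named after its counts were seen, had 1, 1 and 0 counts in the DLX5 libraries and 3, 3 and 7 in the controls, and the groups of the other 11 overlapped. The immune proteases MMP8, MMP12 and ADAM28 fall among these, and the macrophage and neutrophil markers summed to 0.791 to 1.68 CPM with DLX5 and 1.14 to 1.64 CPM in control, with MPO at 0.

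Summed by family, the TIMP genes and the MMP genes moved apart. Summed TIMP FPKM was 264, 272 and 268 in the DLX5 libraries and 155, 165 and 155 in the controls. Summed MMP FPKM was 154, 157 and 158 against 176, 160 and 167. The ratio of the summed levels was 1.71, 1.74 and 1.69 with DLX5 and 0.878, 1.04 and 0.925 in control, or 1.71 ± 0.0212 against 0.946 ± 0.0807 (SD, n = 3). The ranges did not overlap. This ratio is of mRNA levels, it gives each gene equal weight per FPKM, and no test was made of it.

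The MMP sum was dominated by MMP2, with 73.3% in control and 58.8% with DLX5. Without MMP2 the other MMPs summed to 64.4 ± 0.854 FPKM with DLX5 and 44.9 ± 2.15 FPKM in control (SD, n = 3), so the direction of the family sum was that of MMP2. The ADAMTS sum was 123 ± 2.17 FPKM against 128 ± 4.17 FPKM, with the highest DLX5 library and the lowest control both at 124 FPKM, while the share of ADAMTS9 in it was 27.9% with DLX5 and 42.6% in control. The ADAM sum was 130 ± 3.7 FPKM against 103 ± 2.17 FPKM.

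**Figure D3:**
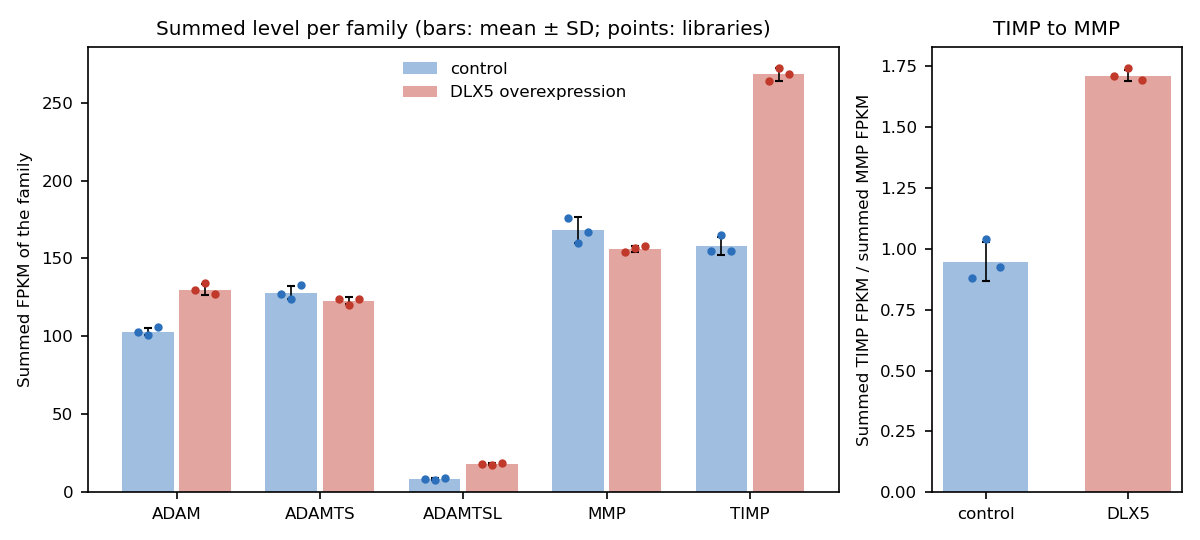
Left, summed deposited FPKM of all members of each family, as the mean of 3 libraries with SD and the single libraries as points; right, the ratio of the summed TIMP to the summed MMP FPKM in each library. The TIMP bar rises from 158 to 268 FPKM, the ADAMTS libraries of the groups meet at 124 FPKM, and the ratio lies at 1.69 to 1.74 with DLX5 and at 0.878 to 1.04 in control.

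The genes around these enzymes were taken as 7 lists of regulators, substrates, partners, relatives and transcription factors, with 165 distinct genes of which 140 were tested. Of these 95 were higher, 21 were lower and 24 did not pass (median log2 fold change 0.65), beside 29.8% higher and 28.8% lower of all tested genes. The lists were drawn up with earlier results of these data known, and matrix genes among them were already known to be higher. Genes named from each list are those with the smallest adjusted p, and others are said to be named after their values were seen.

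Among 24 tested regulators of ADAM and MMP activity 14 were higher, 3 were lower and 7 did not pass (median log2 fold change 0.40). SERPINE2, or protease nexin-1, an inhibitor of thrombin and plasminogen activators, stood at 113, 119 and 120 CPM with DLX5 and at 2.75, 4.44 and 3.41 CPM in control (log2 fold change 5.04 ± 0.11, edgeR adjusted p = 1.05e-23). PLAU, the urokinase that makes the MMP-activating plasmin, rose by 3.0 ± 0.11 on the log2 scale, and PLAT, the tissue-type activator, by 1.41 ± 0.08. RHBDF1, or iRhom1, which escorts ADAM17 to the cell surface, rose by 2.04 ± 0.10. All of these rose, an inhibitor and both plasminogen activators among them.

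Of 37 tested membrane proteins and ligands known to be shed by ADAM10 or ADAM17, 21 were higher, 8 were lower and 8 did not pass (median log2 fold change 0.40). The Notch ligand JAG1 rose by 3.11 ± 0.07 on the log2 scale, from 18.4 to 20.1 CPM in control to 160 to 168 CPM with DLX5 (edgeR adjusted p = 6.89e-23). The hyaluronan receptor CD44 rose by 2.30 ± 0.07, the laminin receptor BCAM by 3.63 ± 0.14 and the receptor NOTCH3 by 1.56 ± 0.07. Named after their values were seen, the neural adhesion molecules L1CAM, NRCAM and NCAM1 had log2 fold changes of -1.36 ± 0.06, -1.18 ± 0.06 and -0.43 ± 0.06, and the neurotrophin receptor NGFR one of -1.54 ± 0.12. The EGF receptor ligand HBEGF was also lower (-1.18 ± 0.10).

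Of 26 tested matrix substrates 22 were higher, 1 was lower and 3 did not pass (median log2 fold change 1.24). The smallest adjusted p were those of COL5A2 (log2 fold change 5.95 ± 0.08), ELN (4.94 ± 0.08), THBS1 (4.35 ± 0.07) and COL1A1 (3.93 ± 0.07), which encode fibrillar collagen chains, elastin and thrombospondin-1. COL1A1, a procollagen that ADAMTS2 processes, stood at 1971, 1886 and 1982 CPM with DLX5 and at 130, 119 and 135 CPM in control, opposite in direction to ADAMTS2. The lower gene was NCAN, or neurocan, a proteoglycan of brain matrix (-1.34 ± 0.09).

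Of 13 tested fibrillin and latent TGF-beta genes 11 were higher, 1 was lower and 1 did not pass (median log2 fold change 1.57). The microfibril protein MFAP5 rose by 6.27 ± 0.09 on the log2 scale, LTBP1 by 3.03 ± 0.07 and the fibrillins FBN1 and FBN2 by 1.91 ± 0.07 and 7.73 ± 0.23. FBN2 had 8 counts in the controls, and SLC27A6 overlaps it on the other strand with 72.7% as many counts. TGFB3, named after its value was seen, fell by 0.94 (SE 0.24). LTBP1, the binding partner of ADAMTSL2, thus rose where ADAMTSL2 fell.

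The partners of ADAM11, ADAM22 and ADAM23 split, with 4 of 9 higher and 5 of 9 lower and a median of -0.35. CNTNAP2, a neurexin-like protein of axons, stood at 10.8, 9.17 and 11.7 CPM with DLX5 and at 34.0, 34.4 and 38.4 CPM in control (log2 fold change -1.75 ± 0.10, edgeR adjusted p = 3.04e-14). LGI3 and the axonal adhesion molecule CNTN2 fell by 1.21 (SE 0.14) and 0.74 (SE 0.11) on the log2 scale. DLG1, a widely expressed scaffold, rose by 1.07 ± 0.06.

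Of 9 tested relatives of these enzymes 7 were higher and 2 did not pass (median log2 fold change 1.39). THSD4, an ADAMTS-like protein that binds fibrillin-1, rose by 3.18 ± 0.07 on the log2 scale, PAPLN, or papilin, by 2.36 ± 0.11 and TLL2 by 2.69 ± 0.30. BMP1, which removes the carboxy-terminal propeptide of procollagens, rose by 1.39 ± 0.07, from 49.9 to 58.2 CPM to 135 to 152 CPM. The amino-terminal and carboxy-terminal procollagen proteinases ADAMTS2 and BMP1 therefore moved in opposite directions.

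Of 22 tested transcription factors known to act on MMP or TIMP genes 16 were higher, 3 were lower and 3 did not pass (median log2 fold change 0.36). The homeobox factor MSX2 rose by 1.99 ± 0.08 on the log2 scale, the AP-1 subunit JUN by 1.18 ± 0.07 and RUNX1 by 1.62 ± 0.10. SNAI1, a repressor of epithelial genes, stood at 4.45, 4.07 and 4.93 CPM with DLX5 and at 19.6, 17.6 and 16.8 CPM in control (log2 fold change -2.0 ± 0.13, edgeR adjusted p = 4.27e-13).

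**Figure D4:**
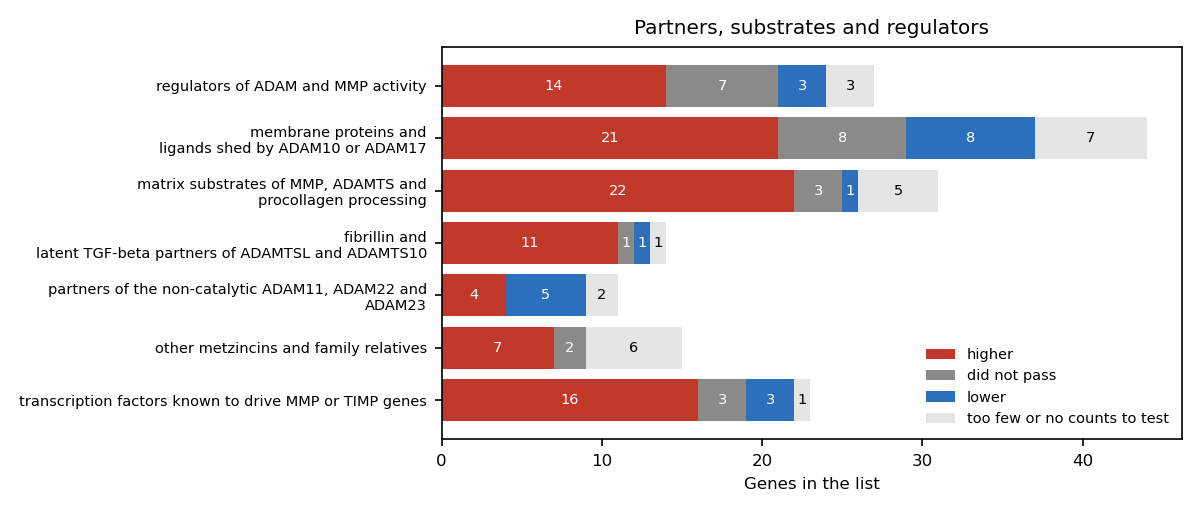
Number of genes (horizontal axis) of each of the 7 lists that were higher (red), lower (blue) or did not pass (grey) at an adjusted p of 0.05, with those that had no or too few counts in pale grey. The matrix and fibrillin lists show 22 of 26 and 11 of 13 tested genes higher, and the list of partners of ADAM11, ADAM22 and ADAM23 is the only one with more lower than higher genes.

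Among markers of other cell types, only the fibroblast and epithelial sets were called higher for most of their genes. Of 8 fibroblast markers 7 were higher and none lower, beside 29.8% higher and 28.8% lower of all tested genes. They summed to 6569 to 6826 CPM with DLX5 and 1438 to 1489 CPM in control. Most of this was COL3A1 (4383 against 1089 CPM) and COL1A1 (1947 against 128 CPM), and PDGFRA did not pass (log2 fold change -0.15 ± 0.08). COL1A1, COL3A1 and DCN stand both among these markers and in the list of matrix substrates. Of 6 epithelial markers 4 were higher and 1 lower (347 to 369 CPM against 19.2 to 22.4 CPM). Most of that sum was KRT18 (312 against 14.5 CPM), which shares exon bases with KRT8 on the other strand. KRT19 had a log2 fold change of -3.68 ± 0.41, and EPCAM did not pass (0.54 ± 0.33). Schwann-like and glial markers summed to 27.3 to 29.9 CPM against 41.9 to 47.5 CPM, endothelial markers to 2.32 to 3.43 CPM against 1.21 to 1.52 CPM and cartilage markers to 30.1 to 33.1 CPM against 10.2 to 14.7 CPM. The last sum was nearly all MATN3 (30.4 against 10.9 CPM), which is also in the list of matrix substrates, while COL9A1 did not pass (log2 fold change -0.41 ± 0.33) and ACAN and COL2A1 were too low to test. Germ cell markers summed to at most 0.548 CPM in any library, with TNP1 and PRM1 at 0. The part of such cells or states in the changes of the protease and inhibitor genes was not tested, and in bulk RNA fewer cells of a kind and less RNA per cell cannot be told apart.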

How the data were processed

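Per the labels' protocols, SY5Y total RNA was isolated by Trizol, and a NEBNext Ultra RNA kit was used for the libraries. HISAT2 2.0.5, featureCounts 1.5.0-p3 and the build hg19 are named in the submitters' processing notes. All 58735 genes of the deposited table nevertheless carry the identifiers, starts and ends of GENCODE 29, so coordinates are given as GRCh38. No strand setting is known here, and 19 tested members share exon bases with another gene; for 9 of them the overlapping genes together hold over 10% as many counts. The authors' deposited counts are whole reads for each gene in each library. Their deposited FPKM values are these counts over gene length and a scaled library total of 0.968 to 1.03 times the count sum.

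Counts of all 6 libraries were fitted with edgeR 4.0.16 in R 4.3.3 (filterByExpr, TMM, two-sided quasi-likelihood test, Benjamini-Hochberg over 17269 tested genes, adjusted p under 0.05, no covariate). The biological coefficient of variation was 6.17%. CPM is scaled by TMM. Standard errors are the absolute log2 fold change divided by the root of the quasi-likelihood F, and with few counts it can be below the counting error. Counting intervals are exact binomial intervals at 95% and cover counting error only. An exact permutation test of 3 against 3 libraries cannot go below p = 0.1, so p-values rest on the model.

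Alternatives were RLE and upper-quartile factors, library totals, DESeq2 1.42.0, limma 3.58.1 on log2(FPKM + 1) and log2(FPKM + 0.1), no filter, 1 CPM in 3 libraries, the replicate number as a block, an adjusted p under 0.01, at least 2-fold, and each library left out. On simulated counts (16799 genes tested) the test recovered 73.1% of 67 genes changed 1.5-fold, 86.6% of 67 changed 2-fold and 93.9% of 66 changed 4-fold, and called 8 of 16608 unchanged genes. The changed genes were moved up or down at random, and all counts were drawn with the same dispersion. In the data 58.6% of all tested genes were called, so these rates describe the simulation only.

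Values per library were printed for the detected TIMP genes, for the 24 members that passed with at least 2-fold and 1 CPM in a group, and for the 2 members of each other family with the highest mean FPKM. MMP14, ADAMTS1, ADAM10, ADAM17, ADAM11, ADAM22 and ADAM23 were given per library after their values were seen. Members at 10 CPM or more that did not pass were named, as were the top 4 or fewer genes per list by adjusted p. A gene of the lists is not reported here. Members and lists were chosen with earlier results of these data known. Promoters came from RefSeq (GRCh38.p14). Figures were drawn with matplotlib 3.10.9.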

Additional observations from a re-analysis of the deposited data

How the results depend on the processing

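The 28 higher and 14 lower members became 26 to 28 and 14 to 15 when each library was left out, with 15 lower only without DLX5 replicate 1, and were 26 to 28 and 14 under the other scalings, tests and filters and at an adjusted p under 0.01. With a minimum change of 2-fold 16 members were higher and 9 lower, the 7 lists gave 52 and 11 genes, and all tested genes gave 1944 and 895; the cause is the added criterion. With the replicate number as a block 28 members were higher and 14 lower, as without it, and all genes gave 5208 and 5016. Same-numbered libraries did not deviate together (correlations 0.007, 0.094 and -0.04), so the numbers were not taken to pair the libraries. The calls of ADAM17 and ADAMTS1 were lost under 2 other scalings, DESeq2 and limma on FPKM. Among genes that did not pass, ADAM19 changed sign with library totals (-0.06) and upper-quartile factors (-0.03), and leaving out a library gave -0.03 to 0.05 for ADAM19, -0.35 to 0.05 for ADAM32 and -0.03 to 0.20 for ADAMTS14; the cause was not tested. Without scaling factors the median log2 fold change of all genes moved by -0.0669. Depth limits the 12 members with 1 to 21 counts, and the folds of ADAMTS8 and ADAMTS18 rest on 3 and 2 control counts.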

Other observations

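Outside the protein-coding genes 8 pseudogenes carry a matching name, and 5 of them had no counts. ADAM1B had 24 counts over the DLX5 libraries and 43 over the controls, ADAM3B had 4 and 4, and MMP23A, a near copy of MMP23B, had 1 and 5. None of them was tested.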
